A study of Mus musculus with 10 samples.

Results

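The 10 genes described here encode proteins of the axonal growth cone, and were chosen by symbol from the 22373 genes of a ribosome profiling (Ribo-seq) table. They are Gap43 (ENSMUSG00000047261), Basp1 (ENSMUSG00000045763), Marcks (ENSMUSG00000069662), Marcksl1 (ENSMUSG00000047945), the 5 genes of the collapsin response mediator protein (CRMP) family Dpysl2 (ENSMUSG00000022048), Dpysl3 (ENSMUSG00000024501), Dpysl4 (ENSMUSG00000025478), Dpysl5 (ENSMUSG00000029168) and Crmp1 (ENSMUSG00000029121), and Dbn1 (ENSMUSG00000034675). All 10 passed the filter on low counts that left 13484 genes for testing. Ribo-seq sequences the mRNA fragments that ribosomes protect from RNase (footprints), so a count reflects both the amount of an mRNA and how many ribosomes it carries. Neocortex was dissected from wild-type CD-1 mice of both sexes at 5 ages, of which E12.5, E14, E15.5 and E17 are embryonic days of timed pregnancies and P0 is the day of delivery. Each stage has 2 libraries, each from a pool of brains, and values of a stage are given with replicate 1 first. All lysates were digested with RNase T1 and RNase A.

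The growth cone is the motile tip of an extending axon, where actin and microtubules are remodelled in response to guidance cues. GAP43, BASP1 and the MARCKS proteins are acidic, acylated proteins that bind the plasma membrane and are regulated by protein kinase C and calmodulin, and they influence cortical actin. CRMPs are cytosolic phosphoproteins that bind tubulin and act downstream of semaphorins, and drebrin, the product of Dbn1, binds actin filaments and links them to microtubules in growth cones and, later, in dendritic spines.

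Libraries held between 7544404 counts (P0 replicate 1) and 36129988 counts (E14 replicate 2). The 10 genes together took 0.225% and 0.239% of all counts in the E12.5 libraries and 1.03% and 0.907% in the P0 libraries. The P0 replicates differed most from each other, with an SD of the log2 ratio between replicates of 0.54 over 4559 well-counted genes, against 0.13 to 0.22 at the embryonic stages. Histone genes fell from as much as 38.5% of counts at E12.5 to as little as 6.32% at P0, so levels are given in CPM, counts relative to a common library size after TMM scaling, a method that assumes most genes do not change. In whole tissue, fewer cells of a type and less RNA per cell cannot be told apart. Since coding lengths were not used, levels are compared between stages within a gene and not between genes.

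Between E12.5 and P0, 9 of the 10 genes rose, where 30.1% of all genes tested were called higher, 32% lower and 62.1% in either direction. A gene was called when its limma-voom adjusted p was under 0.05 and its change passed a minimum fold. For 9 of the 10 both P0 libraries lay apart from both E12.5 libraries, as they did for 75.2% of all genes. Gap43 rose most (8.15-fold), followed by Dpysl5 (4.68-fold), Crmp1 (4.62-fold), Dpysl3 (3.85-fold), Basp1 (3.25-fold), Dpysl2 (3.17-fold), Dpysl4 (2.33-fold), Marcksl1 (1.95-fold) and Dbn1 (1.28-fold). Marcks was not called, with a log2 difference of 0.34 (SE 0.19, adjusted p = 0.151). The 10 genes had a median log2 fold change of 1.68, against -0.013 over all genes tested, and 5.35% of genes had a larger fitted change than Gap43. Across the 5 stages, 9 of the 10 passed the moderated F test at an adjusted p under 0.05, as did 63.8% of all genes, and the exception was again Marcks (adjusted p = 0.0676). The plot of CPM by library shows different courses: a steady climb (Gap43), 2 steps with a level stretch between them (4 CRMP genes) and small or uneven change (Marcks, Dbn1).

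**Figure D1:**
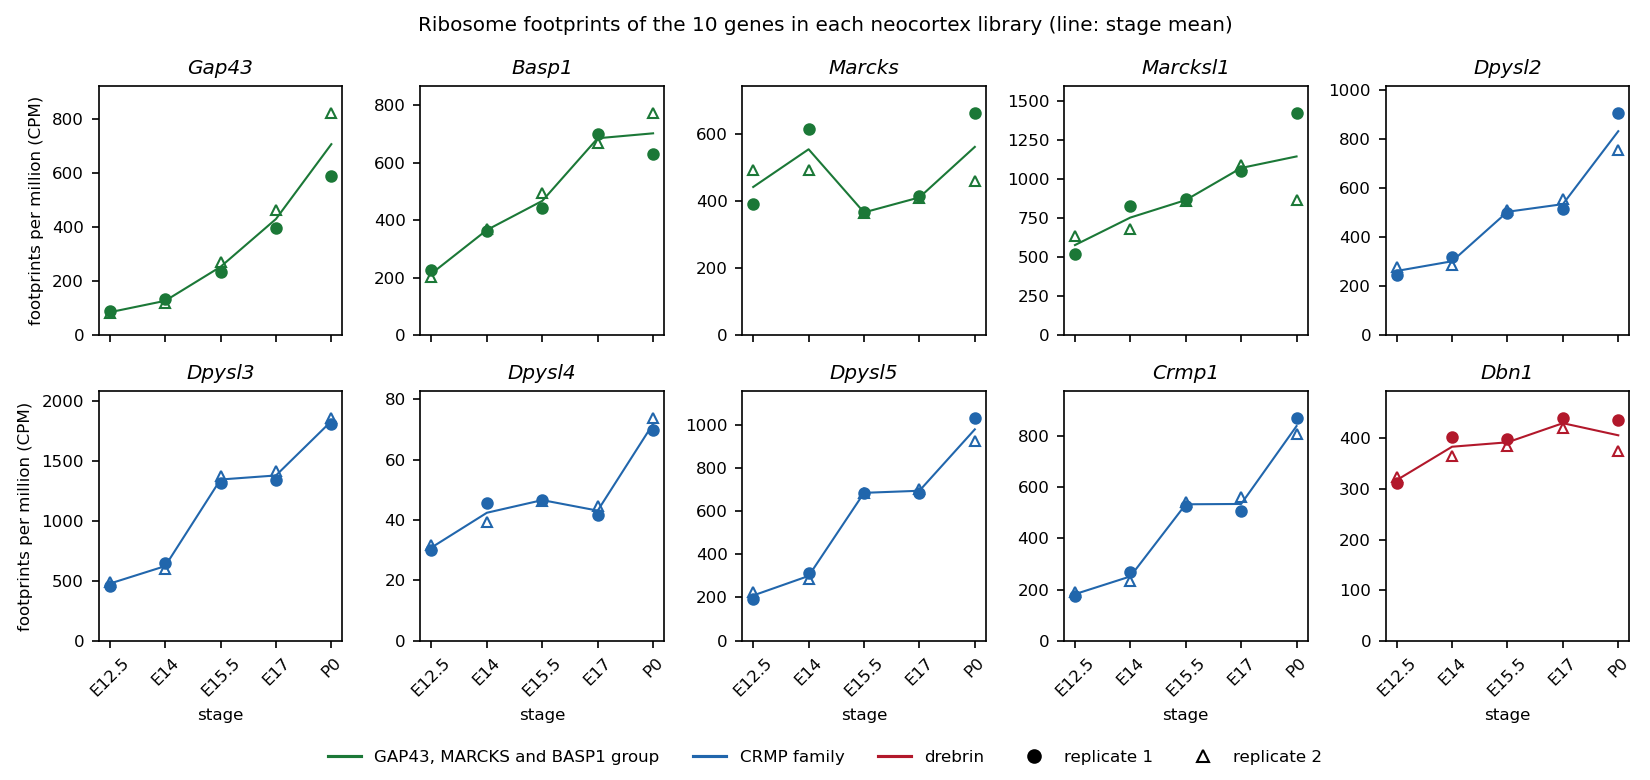
Footprint levels (CPM, TMM-scaled; 1 panel per gene) at the 5 stages, with 1 point per library and a line through the mean of the 2 libraries of a stage. Gap43 climbs at every stage from 85.6 to 708 CPM, Dpysl3, Dpysl5 and Crmp1 step up at E15.5 and again at P0, and Dbn1 stays between 311 and 440 CPM.

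Of the CRMP family, 4 of the 5 genes rose between E14 and E15.5, all 5 rose between E17 and P0, and none passed the test between E15.5 and E17. Of all genes tested, 16.5% were called higher at E15.5 and 9.46% at P0, and 9.04% were called in either direction between E15.5 and E17. Dpysl5 encodes CRMP5, the most divergent family member, and was counted at 195 and 223 CPM for E12.5, 312 and 286 for E14, 683 and 685 for E15.5, 685 and 702 for E17, and 1030 and 925 for P0. Its stages did not overlap in any library, although the E15.5 and E17 values lay close together. It rose by 1.19 on the log2 scale at E15.5 (SE 0.10, adjusted p = 0.000148) and by 0.50 at P0 (SE 0.11, adjusted p = 0.0148). The P0 call was lost with sample quality weights (adjusted p = 0.0646), where 5.18% of all genes were called, against 20.5% in the main fit. It was also lost without either E17 library, which leaves 1 library at E17. The log2 rise was then 0.48 (without E17 replicate 1) and 0.51 (without E17 replicate 2).

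Crmp1, which encodes CRMP1, was counted at 175 and 189 CPM for E12.5, 268 and 234 for E14, 526 and 541 for E15.5, 508 and 561 for E17, and 871 and 808 for P0. No neighbouring stages overlapped apart from E15.5 and E17. The rise at E15.5 was 1.09 (SE 0.11, adjusted p = 0.000217) and that at P0 was 0.65 (SE 0.11, adjusted p = 0.00566). The P0 call was lost without E17 replicate 1, which leaves 1 library at E17, with a log2 rise of 0.58. Between E15.5 and E17 the log2 difference was 0.0020, with a 95% interval from -0.24 to 0.25.

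Promoter sequence was read from a RefSeq table (GRCm38.p6) for Marcksl1, Dpysl5, Crmp1, Dbn1 and Basp1, 5 of the 10 genes, as the 250 bases before each annotated start. The windows of Dpysl5 (chr5:30711314-30711563, plus strand) and of the first of the 2 Crmp1 starts (chr5:37241808-37242057, plus strand) are shown. Among these 5 genes, Dpysl5 and Crmp1 had the most similar courses (r = 0.996, described with the other pairs). Dpysl3, whose course was closer still to that of Dpysl5 (r = 0.997), is not among the 5. Capitals mark GGGCGG, the core of the GC box, on either strand.
Dpysl5: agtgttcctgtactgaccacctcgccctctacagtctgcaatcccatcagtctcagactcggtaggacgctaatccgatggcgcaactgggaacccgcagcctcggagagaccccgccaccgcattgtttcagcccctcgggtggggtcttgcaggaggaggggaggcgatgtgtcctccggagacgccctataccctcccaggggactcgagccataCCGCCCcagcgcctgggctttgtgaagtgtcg
Crmp1: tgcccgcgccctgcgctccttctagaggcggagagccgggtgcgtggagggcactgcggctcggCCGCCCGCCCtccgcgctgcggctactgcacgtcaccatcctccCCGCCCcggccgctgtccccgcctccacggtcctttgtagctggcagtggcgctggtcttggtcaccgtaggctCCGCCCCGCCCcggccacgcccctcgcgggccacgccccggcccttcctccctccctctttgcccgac
The Dpysl5 window held this motif 1 time and the Crmp1 window 5 times, overlapping matches included. Over the 6 windows of the 5 genes it was found in all but that of Marcksl1, and in 32.7% of 32851 windows of the same length. TATAAA was in none of the 6 windows (12.4% of all windows), CAGATG in none (14.4%), and CCAAT only in that of Marcksl1 (33.8%). GC content was between 59.6% and 78.8%, against a median of 52.4% over all windows. A match describes these letters and is not evidence of a bound factor.

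Dpysl3, which encodes CRMP4, was counted at 459 and 493 CPM for E12.5, 644 and 599 for E14, 1317 and 1371 for E15.5, 1340 and 1416 for E17, and 1804 and 1857 for P0. Its E15.5 and E17 libraries overlapped, and all other neighbouring stages were separate. It rose by 1.11 at E15.5 (SE 0.091, adjusted p = 0.00012) and by 0.41 at P0 (SE 0.091, adjusted p = 0.0175), where the same 3 alternatives as for Dpysl5 ended the call (adjusted p = 0.107, 0.141 and 0.0683).

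Dpysl2 encodes CRMP2, the member best known for promoting microtubule assembly and axon formation. It was counted at 244 and 281 CPM for E12.5, 319 and 285 for E14, 497 and 510 for E15.5, 513 and 557 for E17, and 908 and 757 for P0. No stages overlapped, but the step from E12.5 to E14 was small (log2 difference 0.20, adjusted p = 0.471). It rose by 0.74 at E15.5 (SE 0.12, adjusted p = 0.00236) and by 0.64 at P0 (SE 0.12, adjusted p = 0.0106). The P0 call was lost without E17 replicate 1, which leaves 1 library at E17, with a log2 rise of 0.58.

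Dpysl4, which encodes CRMP3, followed another course. It was counted at 29.9 and 31.8 CPM for E12.5, 45.5 and 39.3 for E14, 46.7 and 46.4 for E15.5, 41.6 and 44.6 for E17, and 69.9 and 73.8 for P0. The E14, E15.5 and E17 means lay between 42.4 and 46.6 CPM, and the P0 libraries stood above all others. At E15.5 its log2 difference was 0.14 (95% interval -0.097 to 0.38, adjusted p = 0.327), and this interval excludes the rises of the other 4 CRMP genes at that step, although the difference between genes was not itself tested. Its rise at P0 was 0.74 (SE 0.10, adjusted p = 0.0033).

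The makeup of CRMP footprints shifted with these courses. Of all counts on the 5 genes, Dpysl4 took 2.66% ± 0.071 in E12.5 libraries, 2.79% ± 0.10 in E14, 1.5% ± 0.035 in E15.5, 1.35% ± 0.011 in E17 and 1.58% ± 0.12 in P0 libraries (SD, n = 2 for each stage). Dpysl2 also lost share, from 22.6% ± 0.61 at E12.5 to 16.2% ± 0.011 at E15.5, and stood at 18.3% ± 1.6 at P0. Dpysl5 gained share between E12.5 and E15.5, from 18.0% to 22.0%, whereas Dpysl3 stayed between 40.3% and 43.3% in its stage means. These shares are not corrected for length and were not tested.

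**Figure D2:**
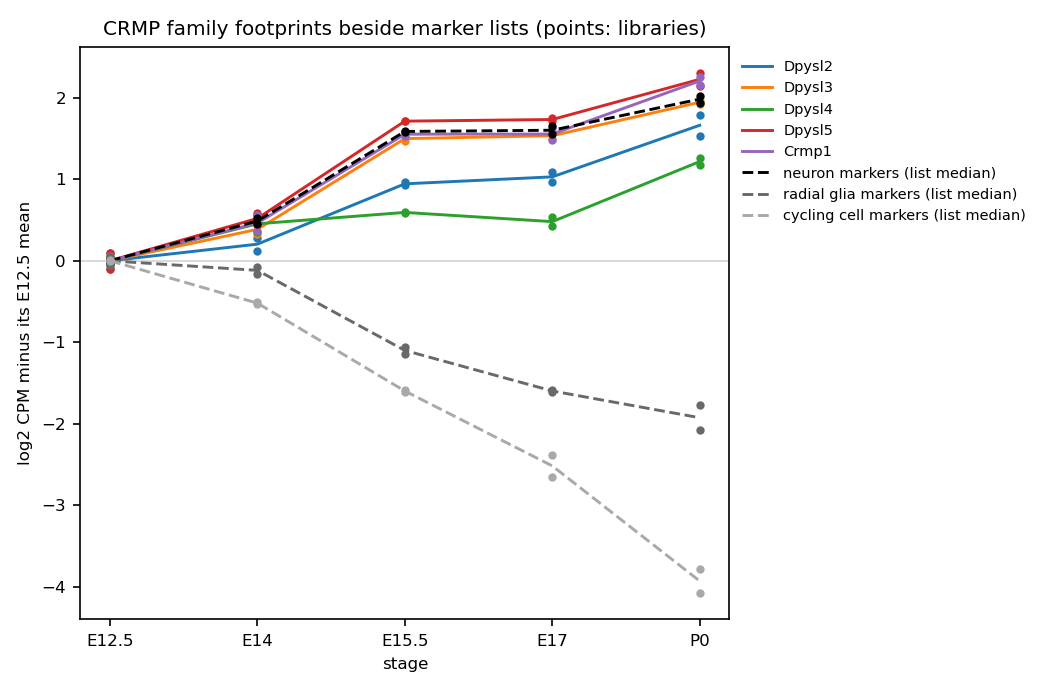
Level of the 5 CRMP genes (solid lines) and median level of the neuron, radial glia and cycling cell marker lists (dashed lines) at each stage, as log2 CPM minus the mean at E12.5, with 1 point per library and lines through the stage means. Dpysl5, Crmp1, Dpysl3 and the neuron markers lie between 1.47 and 1.72 at E15.5, Dpysl2 and Dpysl4 lie lower, and the medians of the other 2 lists fall.

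Gap43 and Basp1 were the 2 genes called higher at E17 than at E15.5, where 5.61% of all genes were. Gap43, the classic growth-associated protein of axon extension and regeneration, was counted at 89.8 and 81.3 CPM for E12.5, 136 and 120 for E14, 236 and 272 for E15.5, 398 and 464 for E17, and 592 and 825 for P0. Each stage lay above the one before it in both libraries. The log2 rise was 0.99 at E15.5 (SE 0.17, adjusted p = 0.00264), 0.76 at E17 (SE 0.17, adjusted p = 0.031) and 0.69 at P0 (SE 0.17, adjusted p = 0.0241), while the step from E12.5 to E14 (0.58, SE 0.17, adjusted p = 0.15) did not pass. The call at E17 was lost in 9 alternative fits. Without the filter the adjusted p was 0.0521, and 3.99% of all genes were called, against 9.04% in the main fit. The other fits each left out 1 embryonic library, which leaves 1 library in a stage, and fewer of all genes were called in them. Without an E15.5 or E17 library the log2 rise ran from 0.65 to 0.87. Without an E12.5 or E14 library both compared stages kept 2 libraries, and the rise stayed at 0.76. The call at P0 was lost with sample quality weights (adjusted p = 0.132), where 5.18% of all genes were called, against 20.5% in the main fit. It was also lost without either E17 library, with a log2 rise of 0.58 (without E17 replicate 1) and 0.80 (without E17 replicate 2).

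Basp1, also known as CAP-23 and NAP-22, is a myristoylated membrane protein of growth cones. It was counted at 226 and 203 CPM for E12.5, 362 and 371 for E14, 442 and 494 for E15.5, 702 and 670 for E17, and 631 and 775 for P0. The E17 and P0 libraries overlapped, with a log2 difference of 0.025 between them (adjusted p = 0.899). Basp1 was the only one of the 10 genes called at E14 (log2 rise 0.77, SE 0.12, adjusted p = 0.0423), and it rose again at E17 (0.55, SE 0.12, adjusted p = 0.031). Each of these calls was lost in 10 of the alternative fits: without the filter, with the replicate block and with any 1 embryonic library left out. At E14, 0.139% of all genes were called without the filter and 0.0297% with the block, against 0.638% in the main fit. At E17 the shares were 3.99% and 6.07%, against 9.04%. Leaving out 1 library leaves 1 in a stage, and fewer of all genes were then called at both steps. With a library of a compared stage left out, the log2 rise ran from 0.70 to 0.85 at E14 and from 0.47 to 0.63 at E17. With a library of another embryonic stage left out, both compared stages kept 2 libraries. The rise was then 0.77 to 0.78 at E14 and 0.55 at E17. The step from E14 to E15.5, a log2 rise of 0.35, had an adjusted p of 0.0525 and was called in 6 of the alternatives.

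Marcks and Marcksl1 varied between replicates more than the CRMP genes did at E12.5, E14 and P0. Marcks, a myristoylated protein kinase C substrate that binds actin and phosphoinositides, was counted at 394 and 493 CPM for E12.5, 618 and 494 for E14, 370 and 364 for E15.5, 415 and 409 for E17, and 665 and 461 for P0. Its highest values were at E14 and P0, which overlapped, and its lowest were at E15.5. It was the only one of the 10 called lower at any step, at E15.5 (log2 difference -0.59, SE 0.19, adjusted p = 0.04), and this call was lost in 8 alternatives, among them scaling by total counts (log2 difference -0.30, adjusted p = 0.228) and the fit without E14 replicate 1 (-0.43, adjusted p = 0.223). Its difference between P0 and E12.5 was 0.071 (adjusted p = 0.698) without P0 replicate 1 and 0.63 (adjusted p = 0.00794) without P0 replicate 2, and without the latter it was also called higher at P0 than at E17 (0.72, adjusted p = 0.0104).

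Marcksl1, which encodes the related MARCKS-like protein, was counted at 520 and 636 CPM for E12.5, 827 and 682 for E14, 875 and 858 for E15.5, 1052 and 1092 for E17, and 1426 and 866 for P0. Its means rose at each stage, but the P0 libraries lay on both sides of the E17 libraries. It passed the test in none of the 4 steps and only from E12.5 to P0 (log2 0.96, SE 0.22, adjusted p = 0.00485), a value that went to 0.60 when P0 replicate 1 was left out and to 1.34 when P0 replicate 2 was, and was called both times. For P0 against E17 the value was 0.061, but -0.31 (adjusted p = 0.135) without P0 replicate 1 and 0.44 (adjusted p = 0.0466) without P0 replicate 2.

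Dbn1 had the smallest ratio of highest to lowest stage mean, 1.35. It was counted at 311 and 324 CPM for E12.5, 402 and 365 for E14, 399 and 386 for E15.5, 440 and 420 for E17, and 437 and 376 for P0. Only the E12.5 libraries stood apart from those of the next stage in the order of means. The rise from E12.5 to P0 (log2 0.35, SE 0.10, adjusted p = 0.0162) was lost without either E12.5 library (adjusted p = 0.0831 and 0.0517) and, on the fold threshold, without P0 replicate 1 (log2 0.25).

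By step, the calls were unevenly placed. From E12.5 to E14, 1 of the 10 was called (Basp1), where 0.638% of all genes were called, with 0.497% higher and 0.141% lower, although all 10 had both E14 libraries above both E12.5 libraries, as 53.2% of genes had their libraries apart in either direction. In a fit without both P0 libraries, 6 genes were called (Gap43, Basp1, Dpysl3, Dpysl4, Dpysl5 and Crmp1) and 8.13% of all genes. The same 6 were called with DESeq2, where 2.88% of all genes were, and with sample quality weights, where 4.86% were. From E14 to E15.5, 5 were called higher (Gap43, Dpysl2, Dpysl3, Dpysl5 and Crmp1) and 1 lower (Marcks), where 16.5% of all genes were called higher, 19.6% lower and 36.1% in either direction. All but Dbn1 had the libraries of the 2 stages apart, as had 76.9% of all genes. The 5 rises held in every alternative fit that was run.

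From E15.5 to E17, 2 were called higher (Gap43 and Basp1), where 5.61% of all genes were called higher, 3.43% lower and 9.04% in either direction, and 8 had their libraries apart, as had 67.8% of all genes. From E17 to P0, 6 were called higher (Gap43 and the 5 CRMP genes) and none lower, where 9.46% of all genes were called higher, 11.1% lower and 20.5% in either direction, and 7 had their libraries apart, as had 55.8% of all genes. With sample quality weights 3 were called, as were 5.18% of all genes. The calls of Gap43, Dpysl3 and Dpysl5 were lost without either E17 library, and those of Dpysl2 and Crmp1 without E17 replicate 1. Such fits leave 1 library at E17, and fewer of all genes were called in them than in the main fit. Of the 6 calls, that of Dpysl4 held in every alternative that was run. The median log2 change of the 10 genes was 0.42, 0.55, 0.11 and 0.46 in the 4 steps, against -0.0015, -0.0086, -4.6e-05 and -0.023 over all genes tested. Adjacent steps share a stage, so their values are not independent. All 10 genes were well counted. Among the 4559 genes with a mean of 500 counts or more, 1.36%, 36.1%, 9.39% and 23% were called in the 4 steps. The shares called higher were 1.23%, 21.3%, 4.56% and 8.49%.

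**Figure D3:**
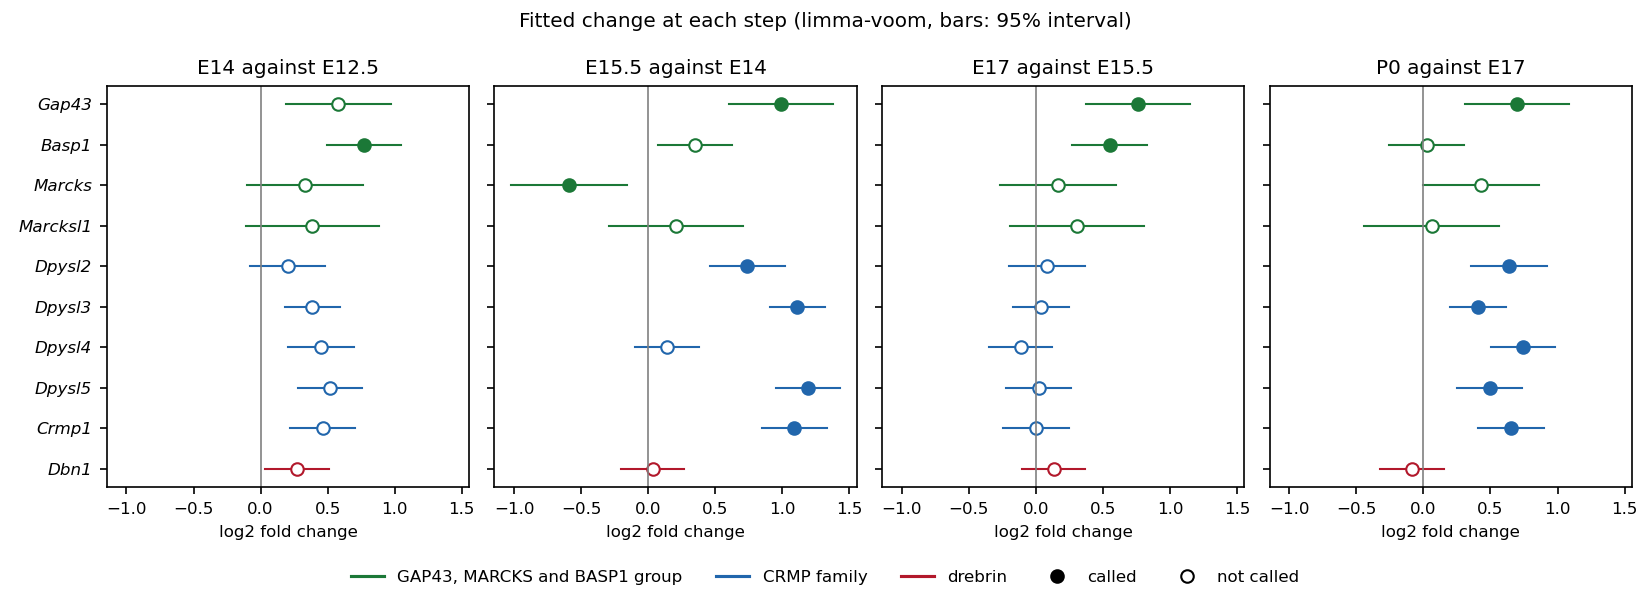
Fitted log2 fold change of the 10 genes in the 4 steps between adjacent stages, with bars for the 95% interval and filled points for genes that were called. Dpysl3, Dpysl5 and Crmp1 rise by 1.09 to 1.19 at E15.5 and lie near 0 at E17, Gap43 lies above 0 in every step, and Marcks lies below 0 at E15.5.

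Likeness between courses was described by Pearson's r of log2 CPM over the 10 libraries, which share stages, so that genes whose levels rise with age have a high r with each other. Among the 10 genes, r was 0.997 for Dpysl3 and Dpysl5, 0.996 for Dpysl5 and Crmp1, and 0.954 for Gap43 and Basp1. Marcks had r between -0.078 and 0.35 with the others, and Marcksl1 was nearest to Dbn1 among these 10 (r = 0.925).

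Outside the 10 genes, and among 9205 genes counted 100 times or more per library on average, Dpysl5 was most like Tubb3, the neuronal beta-tubulin (r = 0.9996), and Enc1, an actin-binding kelch protein (0.998). Dpysl3 was most like Enc1 (0.9994) and Add1, the adducin alpha subunit of the spectrin and actin skeleton (0.999), and Crmp1 was most like Tubb2b, a beta-tubulin (0.998), and Necap1 (0.998). Dpysl2 paired with Ncdn, which encodes neurochondrin (0.999), and Pacs1 (0.997). For Gap43 they were Palm2 (0.995) and Sncb, beta-synuclein (0.994), and for Basp1 Ppp1r9b, the actin-binding spinophilin (0.989), and Rnf227 (0.982). The nearest courses to the rest were those of Usp50 and Polr2l for Marcks (both 0.972), Ndufa6 (0.991) and Smim13 (0.989) for Marcksl1, Ube2o (0.984) and Plekhb2 (0.975) for Dpysl4, and Slc8a2 (0.983) and Hdac4 (0.961) for Dbn1.

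Partners of these proteins moved in both directions. Of all genes tested, 16.5% were called higher and 19.6% lower at E15.5, and 30.1% higher and 32% lower from E12.5 to P0. Of 30 other growth cone genes, 16 rose and 3 fell from E14 to E15.5 (median log2 0.55), and 17 rose and 4 fell from E12.5 to P0 (median 0.65, against -0.013 over all genes). Snap25, a SNARE of vesicle fusion, rose from 34.2 to 402 CPM over the whole interval (log2 3.54, SE 0.12, adjusted p = 4.84e-07), and Enah, an actin polymerase of filopodia, fell from 184 to 68.8 CPM (log2 -1.42, SE 0.16, adjusted p = 0.000106). At E15.5 the largest fall in this list was that of Gnai2, a G protein alpha subunit, from 299 to 205 CPM. Between E17 and P0, 6 rose and 6 fell.

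Of 19 kinases and partners of the CRMPs, 10 rose and 1 fell at E15.5, where 36.1% of all genes were called. From E12.5 to P0, where 62.1% were called, 11 rose and 4 fell. Cdk5r1, which encodes the p35 activator of the CRMP kinase Cdk5, rose from 44.3 to 112 CPM at E15.5 (log2 1.34, adjusted p = 0.000263), and Cdk5r2, which encodes its relative p39, rose from 1.05 to 25.2 CPM by P0 (log2 4.40, SE 0.47, adjusted p = 7.3e-05). Numb, an endocytic adaptor that binds CRMP2, fell from 22.0 to 7.01 CPM (log2 -1.56, adjusted p = 0.000416).

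Of 20 regulators of GAP43 and MARCKS, 8 rose and 1 fell at E15.5, where 36.1% of all genes were called. From E12.5 to P0, where 62.1% were called, 11 rose and 3 fell. Prkce, a protein kinase C, rose from 14.1 to 46.0 CPM at E15.5, and Prkcb, another, rose from 5.11 to 43.6 CPM by P0. Elavl4, which encodes the RNA-binding protein HuD that stabilises Gap43 mRNA, fell from 338 to 229 CPM between E12.5 and P0 (log2 -0.56, adjusted p = 0.000503), while Gap43 rose. Zdhhc2, a palmitoyl transferase, fell from 5.03 to 2.73 CPM at E15.5.

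Of 14 drebrin partners, 4 rose and 2 fell at E15.5, where 36.1% of all genes were called. From E12.5 to P0, where 62.1% were called, 7 rose and 3 fell. Mapre3, which encodes the microtubule tip protein EB3, rose from 28.7 to 102 CPM by P0 (log2 1.83, adjusted p = 1.43e-06). Cxcr4, a chemokine receptor that binds drebrin, fell from 15.1 to 9.27 CPM, and Homer2, a postsynaptic scaffold, fell from 6.94 to 4.19 CPM at E15.5. Cdk5, Cyfip1 and Dbnl each stand in 2 of the 4 partner lists. In the step from E12.5 to E14, 2 growth cone partners rose and no gene of the other 3 lists was called. From E15.5 to E17, 9 growth cone partners rose and 1 fell, 2 CRMP partners and 2 regulators of GAP43 and MARCKS rose, and no drebrin partner was called. From E17 to P0, 3 CRMP partners rose and 1 fell, 3 regulators rose and 1 fell, and 4 drebrin partners rose and 1 fell. Of all genes tested, 0.638% were called from E12.5 to E14, 9.04% from E15.5 to E17 and 20.5% from E17 to P0.

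Markers of neurons rose at E15.5, as did 4 of the 5 CRMP genes, and fewer of them rose at P0. Their median log2 change was 0.48, 1.10, 0.14 and 0.17 in the 4 steps, beside 0.45, 1.09, 0.020 and 0.64 for the 5 CRMP genes. Of 17 neuron markers, 3 rose in the step to E14, 14 in that to E15.5, 4 in that to E17 and 6 in that to P0, none fell at any step, and 15 rose from E12.5 to P0 (median log2 1.95). Of all genes tested, 0.497%, 16.5%, 5.61% and 9.46% were called higher in the 4 steps, and 0.141%, 19.6%, 3.43% and 11.1% lower. From E12.5 to P0, 30.1% were called higher and 32% lower, and these shares also stand beside the other marker lists. The summed level of the neuron markers lay between 2677 and 2704 CPM in E12.5 libraries, 3658 and 3754 in E14, 8334 and 8681 in E15.5, 9075 and 9472 in E17, and 11019 and 12284 in P0 libraries. Relative to E12.5, the median of this list stood 1.58 and 1.59 higher on the log2 scale in the E15.5 libraries and 2.02 and 1.94 higher in the P0 libraries. The same quantity was 1.53 and 1.57, then 2.26 and 2.15, for Crmp1, and 0.60 and 0.59, then 1.178 and 1.256, for Dpysl4. This list holds Snap25, Stmn2 and Ncam1, which are also growth cone partners, and Tubb3. All 10 cycling cell markers fell at E15.5 and all 10 at P0, and their sum went from 1084 to 1099 CPM at E12.5 to 109 to 128 CPM at P0.

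Of 12 radial glia markers, 8 fell and 2 rose at E15.5 and 8 fell and 3 rose from E12.5 to P0, while their sum stayed between 1532 and 2634 CPM. Fabp7, a lipid-binding protein of radial glia with a large part of that sum, was one of the 2 that rose at E15.5, from 1057 to 1628 CPM. Of the 11 glial markers tested of 12, 9 rose and 1 fell between E12.5 and P0. Of the 10 ganglionic eminence markers tested of 12, 6 rose at E15.5, and their sum was 28.9 to 35.5 CPM at E12.5 and 178 to 192 CPM at P0.

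Markers of the choroid plexus and meninges fell sharply at E15.5, the step at which most CRMP genes rose. The choroid plexus markers, of which 9 of 10 were tested, summed to between 301 and 383 CPM in E12.5 libraries, 1199 and 1205 in E14, 12.03 and 15.52 in E15.5, 8.70 and 9.12 in E17, and 16.4 and 16.8 in P0 libraries, and 8 of the 9 fell at E15.5. The 10 meningeal fibroblast markers summed to between 106 and 111 CPM in E12.5 libraries, 70.4 and 79.0 in E14, 4.26 and 4.88 in E15.5, 6.65 and 9.97 in E17, and 4.39 and 5.22 in P0 libraries, and all 10 fell at E15.5. No marker was at 0 in all libraries. The part of these marker changes in the results for the 10 genes was not tested.

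**Figure D4:**
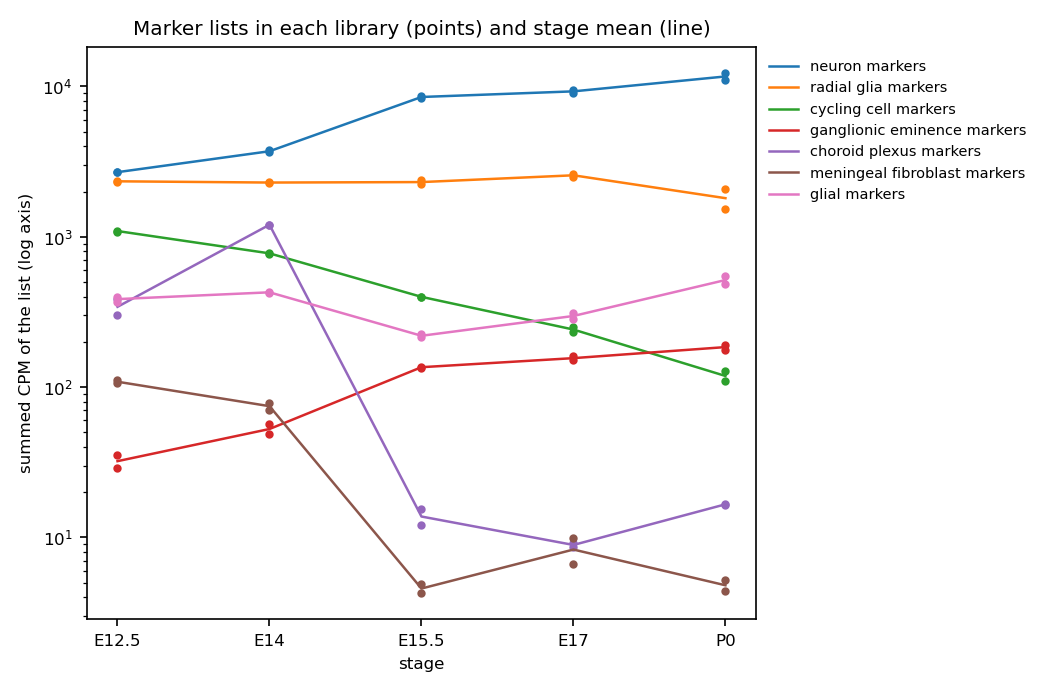
Summed CPM of each marker list in every library (log axis), with 1 point per library and stages along the x axis. Neuron markers rise from 2677 to 12284 CPM while cycling cell markers fall from 1099 to 109 CPM, and choroid plexus and meningeal markers drop between E14 and E15.5.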

How the data were processed

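Neocortex of wild-type mice was profiled at 5 stages with 2 pooled libraries per stage, grouped by the labels. The deposited table, made by the authors, holds whole-number footprint counts per gene, 1 column per library. The study's methods describe adapter trimming, collapsing of duplicate reads, removal of rRNA, tRNA and snoRNA reads and alignment with STAR in which multi-mapping reads were kept. The submitters' processing notes name STAR 2.7.0. Length-corrected gene counts are described, but whether this table holds them, and how reads shared by similar genes were assigned, is not stated, so the related CRMP and MARCKS genes carry that uncertainty.

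Genes with 32 or more footprints summed over a stage's 2 libraries in at least 1 stage were kept (13484 of 22373). Counts were analysed in R 4.3.3 with TMM factors (edgeR 4.0.16) and limma-voom (limma 3.58.1), 1 coefficient per stage over all 10 libraries, two-sided, with Benjamini-Hochberg adjustment over all genes kept. Calls needed an adjusted p below 0.05 together with a change of 1.25-fold or more. Comparisons were the 4 adjacent steps and P0 against E12.5, with an F test over the stages. The pools are the replicates, and p-values measure only the spread between them. Code was tested on simulated data.

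The 10 genes, the partner lists and the marker lists were chosen with earlier results of these data known. Named genes are the 10, the 2 genes most correlated with each, and, per partner list, the called genes with the largest rise and fall at E15.5 against E14 and P0 against E12.5, the last 2 kinds with a mean of at least 100 counts. Fabp7, and the genes named as standing in more than one list, lie outside this rule and were chosen after their values were seen. Of 22373 identifiers, 22274 matched a symbol. Alternatives were edgeR's quasi-likelihood test, DESeq2 1.42.0, total-count scaling, no filter, sample quality weights, a replicate block, each library left out and, chosen after seeing the data, both P0 libraries left out.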

Additional observations from a re-analysis of the deposited data

How the results depend on the processing

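Of 830 values for single genes under an alternative, 729 kept their direction and their side of the threshold, 38 newly passed, 51 no longer passed and 12 changed sign. Levels of the 10 genes were also scaled by total counts and by counts outside histone genes. With total counts, 43 stage means moved by at least their SD between replicates and 7 did not. With counts outside histone genes, 49 moved and 1 did not. The CPM values printed here therefore hold for TMM scaling. Counts of the 10 genes called are given here with the share of all genes called. For E14 against E12.5 (1, with 0.638%) the count was 6 with DESeq2 (2.88%), 2 with total counts (1.06%) and 0 without the filter (0.139%). It was 6 with sample quality weights (4.86%), 0 with the replicate block (0.0297%) and 6 without both P0 libraries (8.13%). For E17 against E15.5 (2, with 9.04%) it was 0 without the filter (3.99%) and 1 with the replicate block (6.07%). For P0 against E17 (6, with 20.5%) it was 3 with quality weights (5.18%). The counts for these steps also changed with 1 library left out, a fit that leaves 1 library in a stage. For E15.5 against E14 (6, with 36.1%) the count was 5 without the filter (24.1%) and 8 with total counts (44.9%). It was 7 with DESeq2 (29.5%) and with quality weights (48.2%). For P0 against E12.5 (9, with 62.1%) it was 9 without the filter (45%) and 10 with total counts (66.4%). For the F test (9, with 63.8%) it was 8 with edgeR and 10 with DESeq2, where the shares were not computed. Over all alternatives, these counts stayed within 1.5 times their values. Whether replicate numbers pair libraries across stages was not settled. The correlation of deviations from the stage means ran from -0.635 to 0.427 over the 10 pairs of stages. It was above 0 in 5 pairs and below 0 in 5, among them every pair with E12.5. A batch shared between stages was not tested. With the replicate block the counts were 6 for E15.5 against E14, 6 for P0 against E17, 9 for P0 against E12.5 and 9 in the F test.

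All changes of sign lay in log2 differences near 0 except that of Marcksl1. For P0 against E17, Dbn1 (-0.085) became 0.030 with total counts and ran from -0.19 to 0.052 with 1 library left out, Basp1 (0.025) became -0.027 with quality weights and ran from -0.089 to 0.18, and Marcksl1 ran from -0.31 to 0.44. For E17 against E15.5, Crmp1 (0.0020) became -0.0061 without the filter and ran from -0.067 to 0.074, and Dpysl3 ran from -0.0025 to 0.077. For E15.5 against E14, Dbn1 ran from -0.041 to 0.098. Scaling by total counts moved the median of all genes by 0.29 at E15.5, by 0.11 from E17 to P0 and by 0.53 from E12.5 to P0, and raised the share of higher calls from 45.6% to 72.7%, from 46.1% to 63.4% and from 48.5% to 72%. For E14 against E12.5 that share went from 77.9% to 90.9%. Under it Marcks was called higher from E12.5 to P0 (log2 0.87, adjusted p = 0.00344), and Dpysl4 (0.44, adjusted p = 0.00805) and Dbn1 (0.33, adjusted p = 0.0352) at E15.5. At least 9 of the 10 genes lay above the all-gene median in each comparison under TMM, total counts and DESeq2 scaling. The causes were not tested. With 2 libraries per stage, and P0 replicate 1 the shallowest, small steps are the least certain.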
